A study of Mus musculus with 4 samples.

Results

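The genes of the interleukin-2 (IL-2) receptor and of its STAT5 feedback loop were followed as a group of 10 named genes, out of 22056 genes in the expression tables. They were the 3 receptor chains Il2ra, Il2rb and Il2rg, the transcription factors Stat5a and Stat5b, the STAT5-induced inhibitors Cish, Socs1 and Socs2, the kinase gene Pim1, and Il7r, the receptor chain of the related cytokine IL-7. The genes were listed by name, and all 10 were present in both tables. The measurements came from single-cell RNA sequencing of mouse T regulatory (Treg) cells, with 4 libraries of 1 group each. The groups were ICOS FC, whose genotype label reads ICOS-deficient, and ICOS WT, in cervical draining lymph nodes (LN) taken on day 1 after the skin hapten oxazolone, and ICOS FC and ICOS WT in spleens of mice at steady state. All mice were C57BL/6, and in every group live cells positive for CD4, TCRβ and the YFP reporter were sorted to a purity above 95%. What drives YFP, whether the WT mice carry the same reporter allele or a Cre, the age of the mice and the number of animals behind a library are not stated in the labels. ICOS is a costimulatory receptor of activated T cells, and the series was designed to compare Treg cells with and without it.

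IL-2 is bound by a receptor of 3 chains: the α chain CD25 (Il2ra) raises affinity, while the β chain (Il2rb) and the common γ chain (Il2rg) carry the signal through JAK1 and JAK3 to STAT5A and STAT5B. Phosphorylated STAT5 enters the nucleus and induces Il2ra itself, which amplifies the signal, and also Cish, Socs1, Socs2 and Pim1. CIS and the SOCS proteins damp the same pathway. Treg cells make little IL-2 of their own and need it from other cells, and high CD25 with low IL-7 receptor (CD127) is a common way of recognising them.

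The LN libraries held 2066 (ICOS FC) and 1897 (ICOS WT) cells, and the spleen libraries 5917 (ICOS FC) and 4995 (ICOS WT) cells. They held between 15045805 and 28256866 unique molecular identifiers (UMIs, each one a captured transcript), with medians of 6789 and 6591 per cell in ICOS FC and ICOS WT LN and 4361 and 5044 in ICOS FC and ICOS WT spleen. Levels below are UMIs summed over a library per 1000000 (CPM). A count of 0 would allow up to 0.106 to 0.199 CPM, taking 3 counts as the limit. Because each group was 1 library, no test across animals was possible, no difference has a replicate check, and every bracket is a 95% interval for counting error only. Cells that carried the same barcode in more than 1 library numbered 15 to 46 per library, and leaving them out changed no count of members given here. The Icos transcript was higher in the libraries labelled ICOS FC, at 928 against 599 CPM in the LN (log2 ratio 0.63 [0.60, 0.67]) and 258 against 112 CPM in the spleen (2.31-fold, log2 interval [1.14, 1.27]). A 3' tag can lie outside a deleted stretch, so this neither checks nor settles the labels, and the libraries are called by their labels throughout. Foxp3, the lineage factor of Treg cells, stood at 70.7 and 72.2 CPM in ICOS FC and ICOS WT LN and at 59.0 and 53.2 CPM in ICOS FC and ICOS WT spleen.

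Promoter sequences from RefSeq (GRCm38.p6, 250 bases before to 50 after a start) matched 8 of the 10 genes, with 11 promoters in all. They were searched on both strands for TTCNNNGAA, the palindrome that STAT5 binds, and for an IRF motif, GAAA followed by 2 bases of any kind and GAAA again, a core of interferon response elements. Of 32851 promoters of this length, 8.30% held at least 1 TTCNNNGAA and 0.457% held 2 or more, while 3.44% held the IRF motif and 0.225% held 2 or more. The windows below run from 100 bases before the start to 30 after it, 5′ to 3′ on the gene's strand. They are shown because Cish was the only one of the 8 genes with 2 TTCNNNGAA matches, and Socs1 the only one with the IRF motif.
Cish chr9:107296559-107296688 (+ strand; capitals mark the 2 TTCNNNGAA matches): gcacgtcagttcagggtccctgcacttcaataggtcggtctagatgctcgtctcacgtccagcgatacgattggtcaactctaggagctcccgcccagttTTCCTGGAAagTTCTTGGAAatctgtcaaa
Socs1 chr16:10785507-10785636 (- strand; capitals mark 2 IRF motif matches that overlap): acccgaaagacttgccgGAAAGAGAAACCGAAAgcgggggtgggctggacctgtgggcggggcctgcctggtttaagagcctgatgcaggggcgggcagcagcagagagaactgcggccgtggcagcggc
The Cish matches begin at bases 1 and 12 counted from the start, and the Socs1 matches at -83 and -77. Il7r had 1 TTCNNNGAA match, TTCAGGGAA at -142. The promoters of Il2ra, Il2rg, Stat5a, Stat5b and Pim1 held neither motif; Il2rb and Socs2 had no promoter entry. A match describes letters only.

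For ICOS FC over ICOS WT, a gene was counted as higher or lower when it reached 20 CPM in a library, differed by at least 1.5-fold and had an interval clear of equality. All 10 genes reached 20 CPM in each comparison. In the LN, 0 of the 10 were counted as higher and 0 as lower, beside 1.11% and 1.05% of the 5506 genes that reached 20 CPM. By the interval alone, 6 lay above equality (Il2ra, Il2rb, Cish, Socs1, Socs2 and Pim1) and 3 below (Il2rg, Stat5b and Il7r), where 20.4% of all genes lay above and 27.7% below. In the spleen, 1 of the 10, Pim1, was counted as higher and 0 as lower, beside 0.588% and 0.255% of 5105 genes. There 2 intervals lay above equality (Socs2 and Pim1) and 3 below (Il2rg, Socs1 and Il7r), against 15.3% and 23.1% of all genes. The median log2 ratio of the 10 genes was 0.15 in the LN and 0.01 in the spleen, beside -0.03 and -0.02 over all genes. The bar plot of levels and the plot of ratios show these values.

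**Figure D1:**
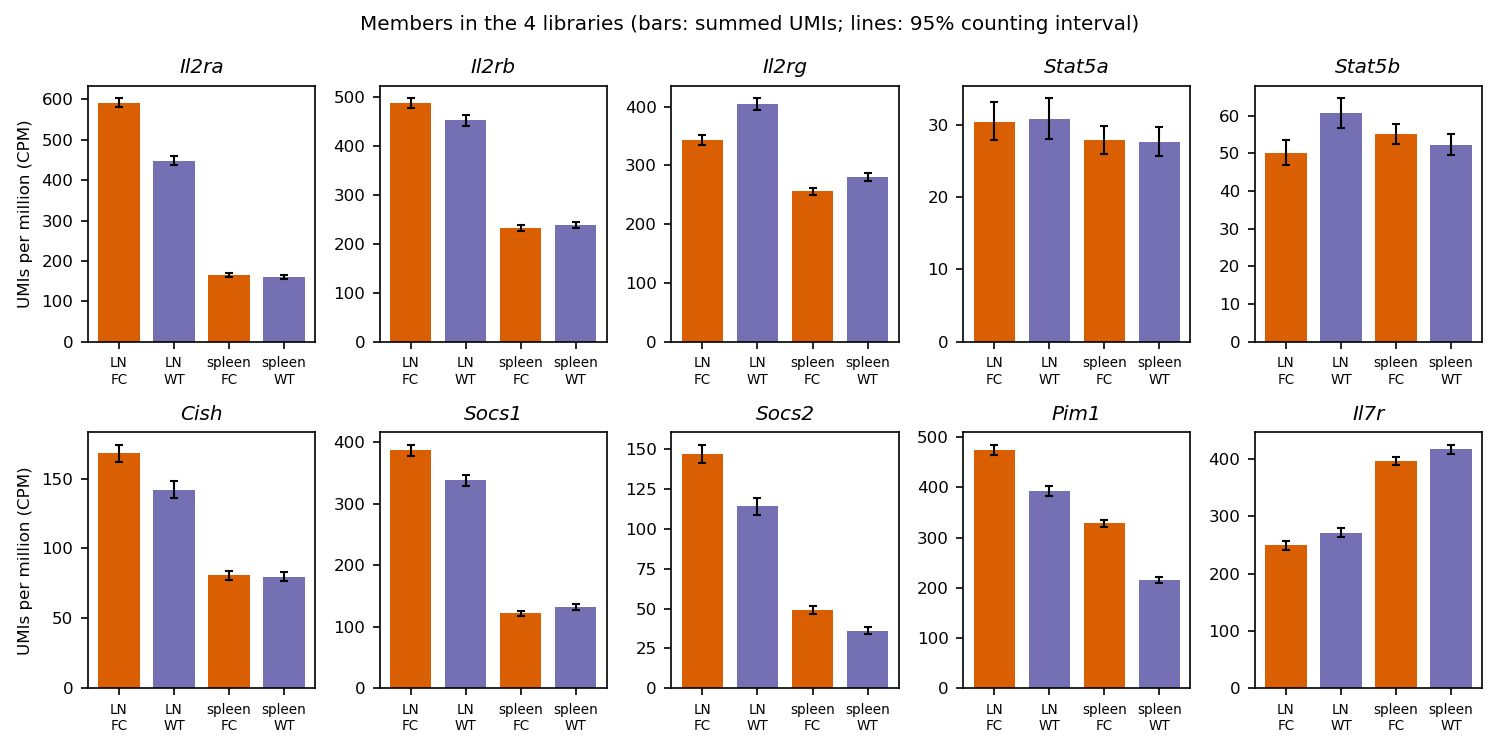
Level of each of the 10 genes in UMIs per 1000000 (CPM, linear axis from 0) in the 4 libraries, ICOS FC in orange and ICOS WT in purple; lines are 95% counting intervals. Il2ra, Socs1 and Socs2 are highest in the LN libraries, Il7r is highest in the spleen libraries, and Stat5a lies between 27.6 and 30.7 CPM in all 4.

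**Figure D2:**
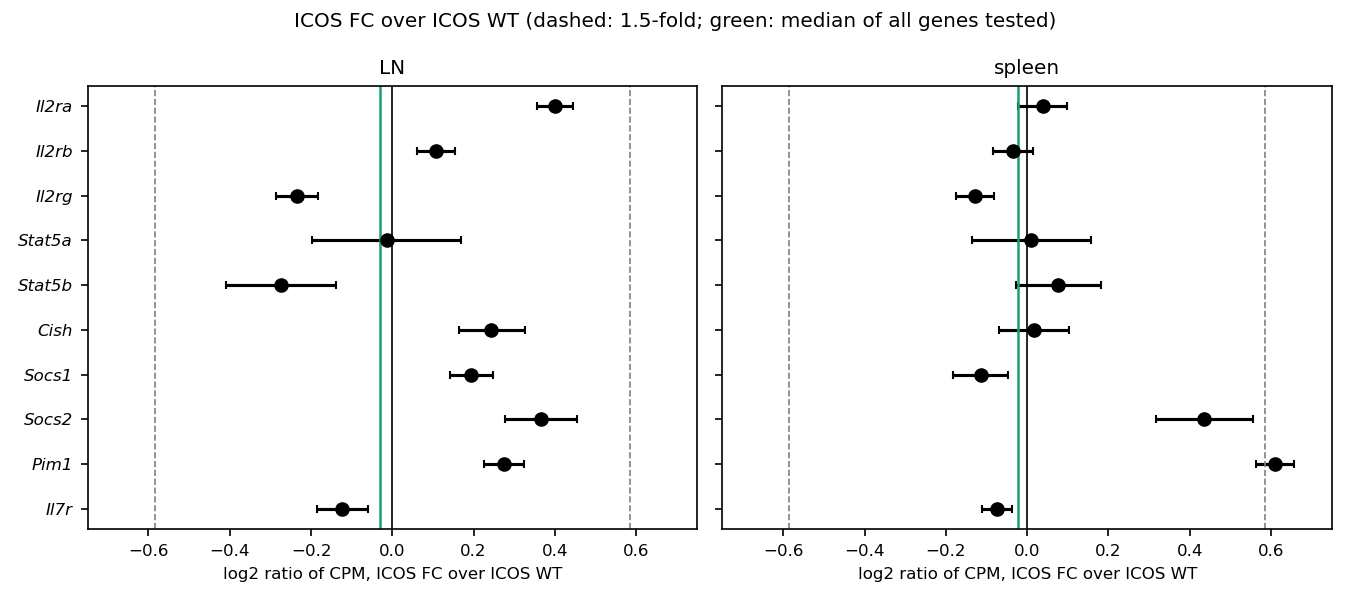
ICOS FC over ICOS WT as a log2 ratio for each gene in the LN (left) and the spleen (right), with 95% counting intervals; dashed lines mark 1.5-fold and the green line the median of all genes tested. Spleen Pim1 (0.61) is the only point beyond a dashed line.

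Il2ra (chromosome 2, 11642807 to 11693193, + strand) encodes CD25. It was at 591 CPM in ICOS FC LN and 448 CPM in ICOS WT LN, from 10247 and 6745 UMIs, and at 165 and 161 CPM in ICOS FC and ICOS WT spleen. The LN libraries were both well above the spleen libraries, and within the LN the ICOS FC library was the higher. The log2 ratio was 0.40 [0.35, 0.44] in the LN, where 6.74% of genes had a ratio at least as far from equality, and 0.04 [-0.02, 0.10] in the spleen, where 74.1% did. In cells with at least 1 Foxp3 UMI, the spleen value had the other sign, at -0.28. The share of cells with an Il2ra UMI was 77.2% in ICOS FC LN and 66.7% in ICOS WT LN. After every cell was thinned to 2000 UMIs it was 51.9% and 43.2%, so the difference remained at equal depth.

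Il2rb (chromosome 15, 78479256 to 78495271, - strand), the signalling β chain shared with the IL-15 receptor, was at 487 and 452 CPM in ICOS FC and ICOS WT LN and at 232 and 238 CPM in ICOS FC and ICOS WT spleen. Its log2 ratio was 0.11 [0.06, 0.15] in the LN and -0.04 [-0.09, 0.01] in the spleen. The tissues stood apart, and the labels differed little within either. Il2rg (chromosome X, 101264378 to 101268255, - strand), the common γ chain shared with the receptors of IL-4, IL-7, IL-9, IL-15 and IL-21, was at 344 and 404 CPM in ICOS FC and ICOS WT LN. In the spleen it was at 256 and 280.1 CPM in ICOS FC and ICOS WT. Il2rg was lower under the ICOS FC label in both tissues, with log2 ratios of -0.23 [-0.29, -0.18] in the LN and -0.13 [-0.17, -0.08] in the spleen. With thinned cells, 48.2% and 54.1% of ICOS FC and ICOS WT LN cells had an Il2rg UMI, and 39.5% and 42.1% of ICOS FC and ICOS WT spleen cells did. Both values kept their sign under all 11 alternative settings, between -0.31 and -0.18 in the LN and between -0.17 and -0.09 in the spleen.

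Stat5a (chromosome 11, 100859351 to 100885169, + strand) and Stat5b (chromosome 11, 100780731 to 100850724, - strand) are neighbouring, closely similar genes for the factors that carry the signal to the nucleus. The labels do not say how reads that match both were counted. Stat5a was at 30.4 and 30.7 CPM in ICOS FC and ICOS WT LN and at 27.8 and 27.6 CPM in ICOS FC and ICOS WT spleen, the flattest of the 10 genes over the 4 libraries. Its log2 ratios were -0.01 [-0.20, 0.17] and 0.01 [-0.14, 0.16]. Stat5b was at 50.1 and 60.6 CPM in ICOS FC and ICOS WT LN and at 55.1 and 52.3 CPM in ICOS FC and ICOS WT spleen. The ICOS WT LN library was the highest of the 4 and the ICOS FC LN library the lowest. Its log2 ratio was -0.27 [-0.41, -0.14] in the LN and 0.08 [-0.03, 0.18] in the spleen.

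Cish (chromosome 9, 107296026 to 107302784, + strand) encodes CIS, a SOCS-family protein that is among the first STAT5 targets and limits cytokine receptor signalling. It was at 168 and 142 CPM in ICOS FC and ICOS WT LN and at 80.8 and 79.8 CPM in ICOS FC and ICOS WT spleen. The spleen libraries were close to each other, and the LN libraries lay above both. The log2 ratio was 0.24 [0.16, 0.33] in the LN and 0.02 [-0.07, 0.10] in the spleen. Socs1 (chromosome 16, 10782240 to 10785536, - strand), an inhibitor of JAK kinases that interferons induce as well, was at 386 and 338 CPM in ICOS FC and ICOS WT LN and at 122 and 132 CPM in ICOS FC and ICOS WT spleen. It was the only one of the 10 whose intervals were clear of equality in opposite directions, at 0.19 [0.14, 0.25] in the LN and -0.11 [-0.18, -0.05] in the spleen. Interferon response genes also differed between libraries: the 10 markers of that list, all present, summed to 6976 and 8736 CPM in ICOS FC and ICOS WT LN and to 1959 and 1679 CPM in ICOS FC and ICOS WT spleen. Their part in the Socs1 values was not tested.

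Socs2 (chromosome 10, 95385362 to 95417180, - strand), best known as a brake on growth hormone signalling and a STAT5 target in many cells, was at 147 and 114 CPM in ICOS FC and ICOS WT LN. In the spleen it was at 49.0 and 36.2 CPM in ICOS FC and ICOS WT. It was higher under the ICOS FC label in both tissues, at 0.37 [0.28, 0.45] in the LN and 0.44 [0.32, 0.56] in the spleen, where 8.48% and 1.68% of genes differed as much. Its UMIs in the spleen were concentrated, with 59.1% and 64.0% of them in the 5% of ICOS FC and ICOS WT cells that held most. The counting intervals treat UMIs as independent and are too narrow for such a gene.

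Pim1 (chromosome 17, 29490753 to 29496112, + strand), a serine/threonine kinase that promotes survival and growth after cytokine signals, was at 475 and 392 CPM in ICOS FC and ICOS WT LN and at 328 and 215 CPM in ICOS FC and ICOS WT spleen. The ICOS WT spleen library stood lowest of the 4. The spleen difference was 1.53-fold, a log2 ratio of 0.61 [0.56, 0.66] that 0.744% of genes equalled or passed, and the LN ratio was 0.28 [0.23, 0.32]. The spleen ratio lay just past the 1.5-fold threshold (log2 0.58). It was 0.57 when cells at or over 5% mitochondrial counts were left out, 0.57 for Foxp3-positive cells alone and 0.57 without spleen cluster 4, and Pim1 was not counted as higher in any of these. With thinned cells, 2316 of 5762 ICOS FC spleen cells (40.2%) and 1473 of 4906 ICOS WT spleen cells had a Pim1 UMI.

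Il7r (chromosome 15, 9505788 to 9530176, - strand) encodes CD127, which shares the γ chain and is repressed by IL-2 signals in T cells. It was at 249 and 272 CPM in ICOS FC and ICOS WT LN and at 396 and 417 CPM in ICOS FC and ICOS WT spleen. The spleen libraries were the higher, the reverse of the other 3 receptor chains. Log2 ratios were -0.12 [-0.18, -0.06] in the LN and -0.07 [-0.11, -0.04] in the spleen, and the median gene had -0.03 and -0.02. The sign was not stable to the choice of cells: it was 0.17 for spleen cells with a Foxp3 UMI, 0.01 for the spleen without cluster 4, and 0.13 for the LN with clusters weighted equally.

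The same 10 genes were set side by side between the tissues. Tissue, challenge and library cannot be told apart in this design. Counted at 2-fold or more under both labels, 3 of the 10 were higher in the LN (Il2ra, Socs1 and Socs2) and 0 lower, beside 4.1% and 0.265% of 5662 genes. By intervals alone 7 lay above equality under both labels and 1, Il7r, below, beside 41.2% and 14.9% of genes. The LN over spleen log2 ratio of Il2ra was 1.84 [1.79, 1.89] for ICOS FC and 1.48 [1.42, 1.53] for ICOS WT. For Socs1 it was 1.67 [1.61, 1.73] and 1.36 [1.30, 1.42] for ICOS FC and ICOS WT. For Socs2 it was 1.58 [1.49, 1.68] and 1.65 [1.54, 1.77]. Il2rb (1.07 for ICOS FC and 0.93 for ICOS WT) and Cish (1.06 and 0.83) passed 2-fold under the ICOS FC label only, a difference between labels that was not tested. Pim1 (0.53 and 0.87) and Il2rg (0.42 and 0.53) were higher in the LN by less, and Il7r was at -0.67 and -0.62. The median of all genes was 0.13 under both labels. Scaling by TMM factors, by DESeq2 size factors or without ribosomal protein and mitochondrial genes lowered every one of these tissue ratios by 0.12 to 0.18, and the 3 genes counted as higher were the same 3 in each. Markers of dividing cells summed to 712 and 402 CPM in ICOS FC and ICOS WT LN, against 97.9 and 80.7 CPM in ICOS FC and ICOS WT spleen, and their part was not tested.

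Within each tissue the deposited clusters were compared, 8 in the LN and 7 in the spleen. Clusters were built from these cells' genes, so the differences between them are descriptions. By markers, spleen cluster 1 was follicular Treg-like (8 of 8 markers at least 2-fold above the other cells), cluster 2 effector Treg-like (14 of 16) and cluster 6 interferon response-like (10 of 10). LN cluster 0 was effector Treg-like (15 of 16), cluster 1 resting Treg-like (3 of 8), cluster 2 follicular Treg-like (6 of 8) and cluster 5 interferon response-like (9 of 10). In LN cluster 7 all 8 markers of T cell receptor activation were at least 2-fold higher than in the other cells (2575 against 376 CPM). So were 4 of 5 conventional CD4 T cell markers. All 8 CD8 T and NK cell markers were at least 2-fold higher there too, with a sum of 1201 against 122 CPM. Over the whole libraries these markers summed to 113 CPM in ICOS FC LN and 208 CPM in ICOS WT LN, and their part in the LN differences between labels was not tested. The other clusters go by number. The heat map of clusters shows the 10 genes in 29 sums of a cluster and library with at least 50 cells.

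**Figure D3:**
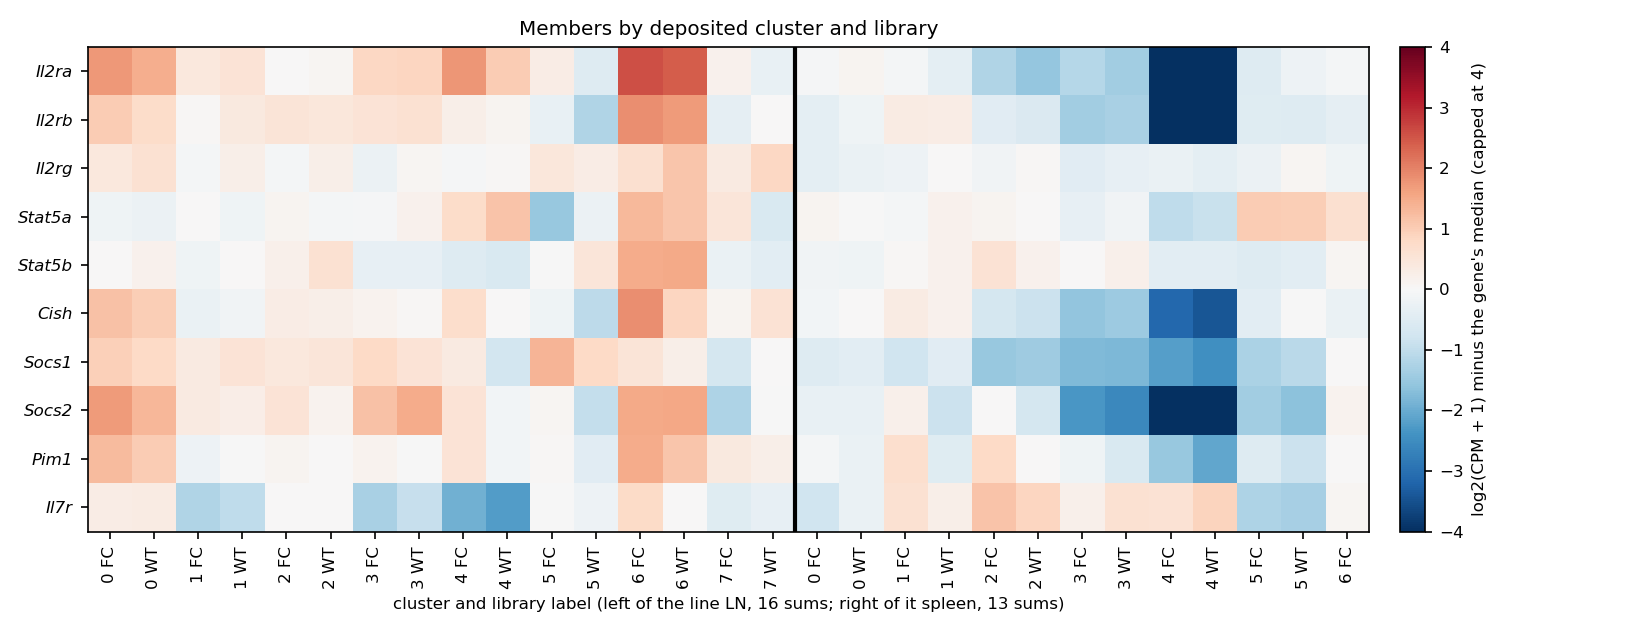
Log2(CPM + 1) of each gene minus its own median, in clusters of the LN (left of the line) and the spleen (right), ICOS FC beside ICOS WT for each cluster number; red is above and blue below the median, with colour capped at 4. Spleen cluster 4 is dark blue for Il2ra, Il2rb and Socs2 under both labels, and pale for Il2rg and Il7r.

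Spleen cluster 4 stood apart from the other spleen clusters in 4 genes above all. Il2ra was at 6.08 and 6.99 CPM there in ICOS FC and ICOS WT, while it was between 81.0 and 256 CPM in the other spleen clusters. Il2rb was at 11.5 and 16.6 CPM, Cish at 11.2 and 9.17 CPM, and Socs2 rested on 1 and 2 UMIs. Il2rg (260.1 and 237 CPM) and Stat5b (40.7 and 40.3 CPM) were near their levels elsewhere, and Il7r was high, at 500.4 and 622 CPM. All 8 Treg identity markers were at least 2-fold lower there than in the other cells, with a sum of 199.9 against 2268 CPM, and Foxp3 was at 6.38 and 2.17 CPM. Of the 5 conventional CD4 T cell markers, Cd40lg, Dapl1 and Igfbp4 were at least 2-fold higher and 1 was at least 2-fold lower. The cluster made up 11.1% [10.3, 11.9] of ICOS FC and 14.8% [13.8, 15.8] of ICOS WT spleen cells, so it weighed more in the ICOS WT library. Its median depth of 4845 and 5492 UMIs per cell was not low.

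In the other spleen clusters Il2ra was highest in cluster 0, at 232 and 256 CPM in ICOS FC and ICOS WT, and close to that in cluster 1 of ICOS FC, at 226 CPM. Cluster 0 was led by Gata1, Gpr83 and Bcl2 and has no name here. Effector-like cluster 2 had less, at 104 and 81.0 CPM, but the most Pim1 (524 and 301 CPM) and much Il7r (739 and 607 CPM). Follicular-like cluster 1 had the most Il2rb (409 and 401 CPM) and Cish (135 and 120.4 CPM). Cluster 5, led by the T cell receptor response genes Ccl4, Ccl3, Egr3 and Nr4a1, had the most Stat5a (56.7 and 55.3 CPM) and the least Il7r (141 and 134 CPM). Socs1 was highest in the interferon response-like cluster 6 of ICOS FC, at 242 CPM; ICOS WT had 47 cells there, too few for a value.

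In the LN, effector-like cluster 0 was high for most of the loop, with Il2ra at 797 and 648 CPM, Cish at 240.3 and 215 CPM, Socs2 at 229 and 177 CPM and Pim1 at 723 and 611 CPM in ICOS FC and ICOS WT. Il7r was also high there, at 411 and 421 CPM. So Il2ra was above the resting-like cluster (318 and 349.8 CPM) in the effector-like cells of the LN, while in the spleen the effector-like cluster was among the lowest. Cluster 4, led by Shmt1, Hk2 and Srm and with 5 of 8 division markers higher, had Il2ra at 805 and 484 CPM and the least Il7r, at 87.5 and 70.8 CPM. Socs1 was highest in interferon response-like cluster 5 of ICOS FC, at 623 CPM, against 470 CPM in cluster 0. In ICOS WT it was at 423 CPM in both clusters. Il2ra in cluster 5 was at only 293 and 167 CPM in ICOS FC and ICOS WT. Cluster 6 had the highest Il2ra of all, 1430 and 1284 CPM, but from 230 and 319 UMIs of cells with medians of 1788 and 2022 UMIs, far below those of their libraries. Its leading genes were the MHC class II genes H2-Eb1, H2-Ab1 and H2-Aa, which mark antigen-presenting cells, and their part in its values was not tested. In the same cluster 7 of 8 division markers were at least 2-fold higher than in the other cells. Of 8 Treg identity markers 3 were at least 2-fold higher, Foxp3 among them, and 0 were at least 2-fold lower.

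Ratios of ICOS FC over ICOS WT were taken within the 14 clusters that had at least 50 cells of both labels, 8 in the LN and 6 in the spleen. Pim1 was above equality in 10 of the 14 by its interval and below in 1, and above in all 6 spleen clusters. Its largest ratio was in follicular-like spleen cluster 1, with 474 CPM in ICOS FC and 215 CPM in ICOS WT (1.14 [1.03, 1.25]), followed by effector-like cluster 2 with 524 and 301 CPM (0.80 [0.70, 0.90]). Cluster 0, the largest in the spleen, had 282 and 247 CPM (0.19 [0.11, 0.27]). Socs2 went with Pim1 in the first 2 of these, at 79.5 and 37.6 CPM in cluster 1 (1.08 [0.81, 1.36]) and 69.2 and 42.0 CPM in cluster 2 (0.72 [0.45, 0.99]), while in cluster 0 it was at 55.6 and 55.8 CPM. Il2ra was likewise above equality in clusters 1 (0.31) and 2 (0.36) and below in clusters 0 (-0.15) and 5 (-0.32), beside its spleen value of 0.04. Il7r was above in clusters 1 (0.37) and 2 (0.28) and below in 0 (-0.54), 3 (-0.41) and 4 (-0.31).

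**Figure D4:**
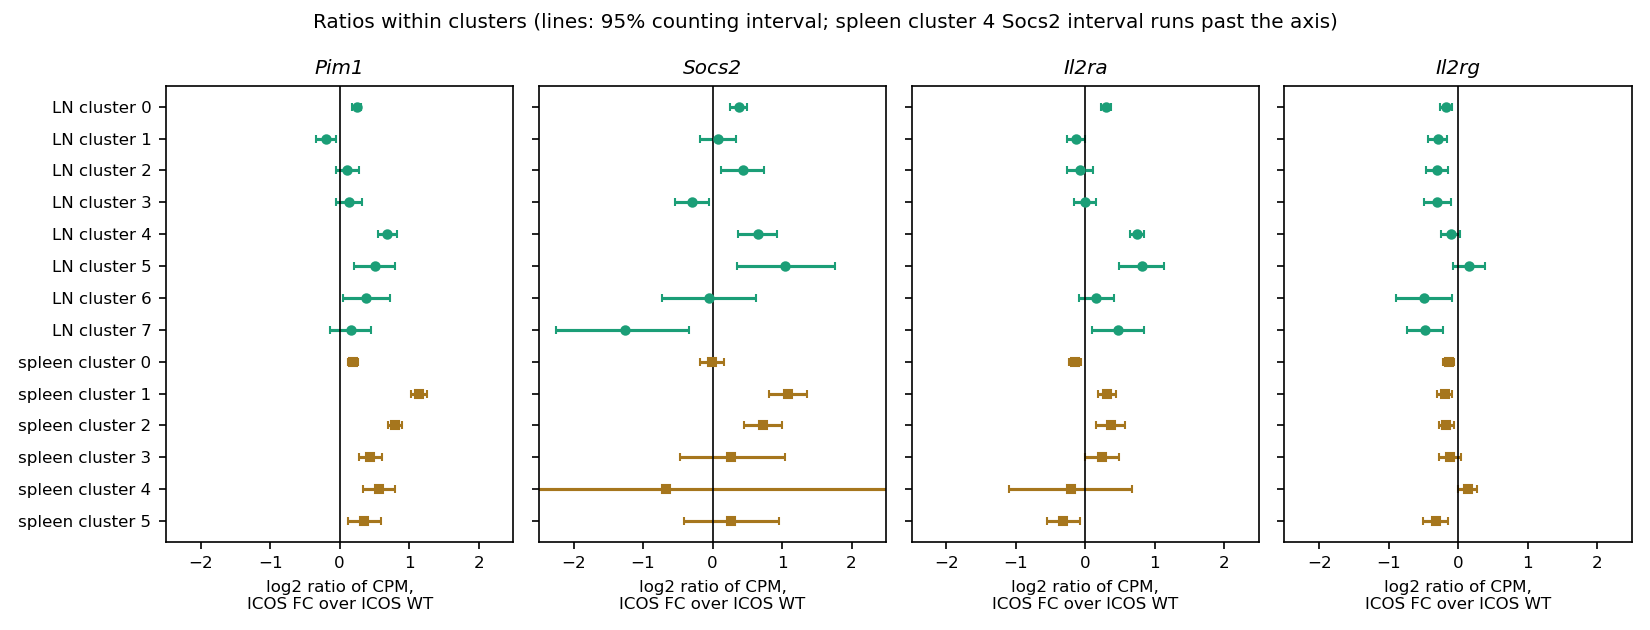
ICOS FC over ICOS WT as a log2 ratio within each cluster of the LN (green circles) and the spleen (brown squares) for Pim1, Socs2, Il2ra and Il2rg, with 95% counting intervals. Pim1 lies right of 0 in all 6 spleen clusters, and Il2rg lies left of 0 in 12 of 14 clusters.

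Il2rg was below equality by its interval in 10 of the 14 clusters, 6 in the LN and 4 in the spleen, and above in 1, the Foxp3-low spleen cluster 4 (0.14 [0.00, 0.27]). The 4 ratios in LN clusters 0 to 3 lay between -0.30 and -0.18, and the other 2 LN clusters below equality were cluster 6, with few UMIs per cell, and cluster 7, with the CD8 T and NK cell markers. Without clusters 6 and 7 the LN ratio of Il2rg was -0.21. In LN cluster 4 several genes were higher in ICOS FC together: Socs1 at 310.3 against 146 CPM (1.09 [0.91, 1.27]), Il2ra at 805 against 484 CPM (0.74 [0.64, 0.84]), Cish (0.69), Pim1 (0.68) and Socs2 (0.65). The interferon response-like LN cluster 5 had higher Socs2 (1.05), Il2rb (0.92), Cish (0.90), Il2ra (0.81) and Socs1 (0.56) in ICOS FC, from 104 and 119 cells. In resting-like LN cluster 1 the order was the other way for Il2rb (-0.35), Socs1 (-0.19), Pim1 (-0.19) and Il2ra (-0.14). The labels also filled these clusters unequally: effector-like cluster 0 held 33.0% of ICOS FC and 27.7% of ICOS WT LN cells, cluster 4 held 10.5% and 7.27%, and follicular-like cluster 2 held 10.7% and 20.6%. With the clusters weighted equally the LN ratio of Il2ra was 0.27 and that of Socs2 0.12, against 0.40 and 0.37 over all cells.

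Members were then counted in the same cells, each thinned to 2000 UMIs. In all 4 libraries, cells with an Il2ra UMI more often had a UMI of Il2rb, Cish, Socs1, Socs2 and Pim1, with separate intervals. No share over all genes is given for this rule, so how many other genes separate likewise is not known here. In the LN, Cish was seen in 34.0% of Il2ra-positive against 19.7% of other ICOS FC cells, and in 35.6% against 15.8% of ICOS WT cells. In the spleen these shares were 22.4% against 10.4% in ICOS FC and 21.9% against 10.0% in ICOS WT. Socs2 showed the widest gap in proportion, at 28.9% against 15.4% in ICOS FC LN, 27.1% against 10.3% in ICOS WT LN, 15.8% against 5.21% in ICOS FC spleen and 12.6% against 4.13% in ICOS WT spleen. Stat5a and Stat5b did not separate in any library, and Il2rg in 1 of 4. Il7r was less frequent in Il2ra-positive spleen cells (39.1% against 44.1% in ICOS FC, 41.1% against 47.5% in ICOS WT), while in the LN the intervals overlapped. In spleen cluster 4, where Il2ra was lowest, 0.92% and 1.09% of thinned ICOS FC and ICOS WT cells had an Il2ra UMI.

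**Figure D5:**
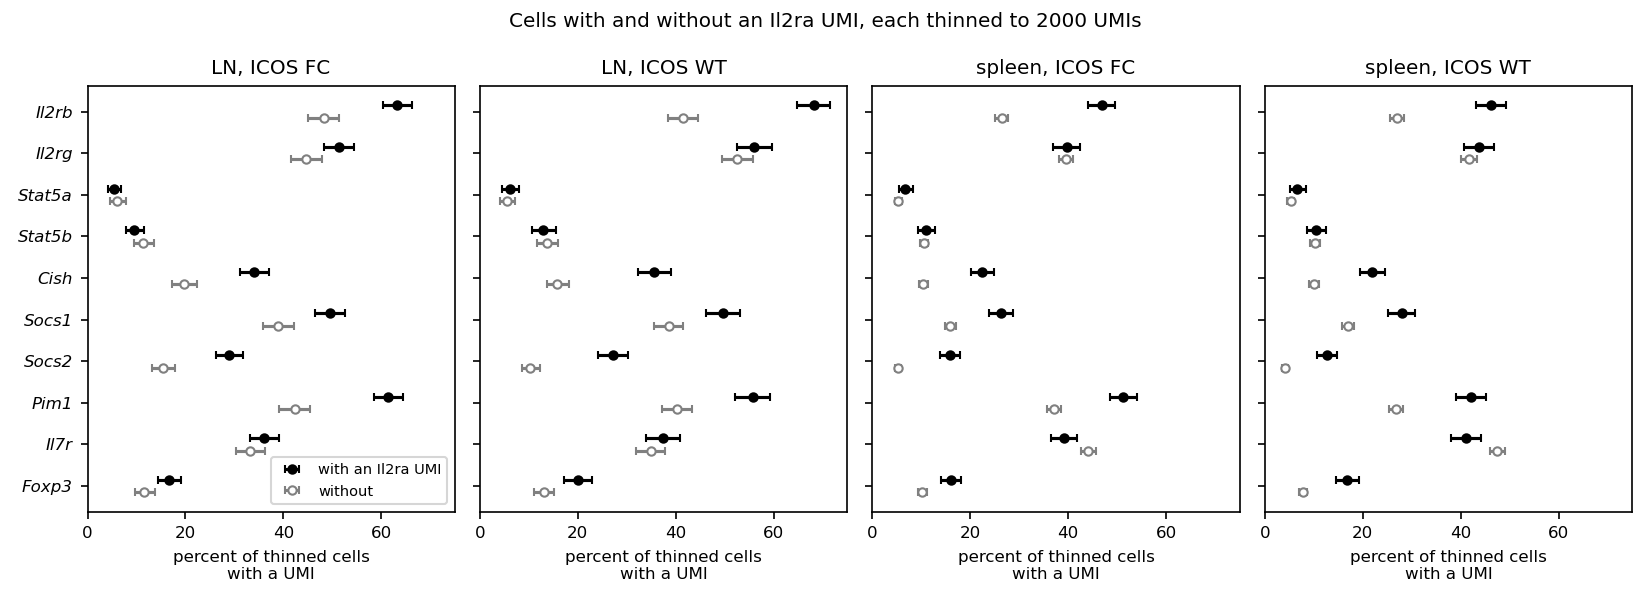
Percent of cells with a UMI of each gene among cells with (filled) and without (open) an Il2ra UMI in the 4 libraries, every cell thinned to 2000 UMIs, with 95% binomial intervals. Il2rb, Cish, Socs1, Socs2, Pim1 and Foxp3 are separated in every library, and Stat5a and Stat5b in none.

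The same intervals were compared within 19 combinations of cluster and library with at least 50 cells of each kind. They were separate in 8 for Cish, 8 for Socs2, 8 for Pim1, 7 for Il2rb and 5 for Socs1, always higher in Il2ra-positive cells. They were separate in 0 for Stat5a, Stat5b, Il2rg and Il7r. Here too no share over all genes is given. Cells with a Foxp3 UMI also more often had an Il2ra UMI, at 60.8% against 50.4% in ICOS FC LN, 53.9% against 41.2% in ICOS WT LN, 31.2% against 21.3% in ICOS FC spleen and 37.2% against 19.8% in ICOS WT spleen. Il7r was not depleted from Foxp3-positive cells: 44.1% of them had an Il7r UMI against 33.1% of the other ICOS FC LN cells, and 44.4% against 34.3% in ICOS WT LN. In the spleen it was 48.6% against 42.3% in ICOS FC, and 43.7% against 46.4% with overlapping intervals in ICOS WT. A cell without a Foxp3 UMI is not shown to lack Foxp3, since only 20.8% to 38.9% of unthinned cells had one.

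Over the 29 cluster sums, the genes whose log2(CPM + 1) ran most like Il2ra, among 5102 ranked, were Il2rb (Pearson r 0.95), Cish (0.94) and Lrrc32 (0.93), the last encoding the Treg surface protein GARP. For Cish they were Il2rb (0.95), Il2ra (0.94) and Ctla4 (0.92), and for Il7r Selenop (0.91), Aaed1 (0.87) and Stk4 (0.87). The sums share libraries and depth, and spleen cluster 4 lies far below the others for the first 2 genes, so these are descriptions without a test. The r of Il2ra with Stat5a was 0.55 and with Stat5b 0.36. With Il7r it was -0.40 over all sums, 0.12 over the 16 LN sums and -0.49 over the 13 spleen sums, so its sign differed between the tissues.

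The rest of the pathway was read from 6 lists. Their counts stand beside the shares of all genes counted by the same rules. Between the labels these shares were 1.11% higher and 1.05% lower in the LN, and 0.588% and 0.255% in the spleen. Between tissues they were 4.1% higher and 0.265% lower in the LN under both labels. Of 9 JAK kinases and other STAT factors, 0 were counted as higher or lower between the labels in either tissue. All 9 reached 20 CPM in the LN, where the intervals of 8 were below equality, beside 27.7% of all genes. None was above it, and the median was -0.22, beside -0.03 for all genes. Stat2 (57.1 and 76.7 CPM in ICOS FC and ICOS WT, -0.43), Jak2 (-0.39) and Stat4 (-0.29) lay farthest. In the spleen 7 reached 20 CPM, with a median of -0.03 and 3 intervals below, that of Stat4 (-0.14) farthest. Between tissues Stat2, which interferons induce, was at least 2-fold higher in the LN under both labels, against 16.6 and 19.8 CPM in ICOS FC and ICOS WT spleen. Of 11 other genes for γ chain cytokines and for γ chain or related receptors, only Il4ra, Il21r and Crlf2 reached 20 CPM. Of these, 0 were counted in any comparison. Il21r was at 91.5 and 121 CPM in ICOS FC and ICOS WT LN (-0.40 [-0.50, -0.31]).

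Of 15 other negative regulators, 10 reached 20 CPM and 0 were counted between the labels in either tissue. Over all genes 1.11% were counted as higher and 1.05% as lower in the LN, and 0.588% and 0.255% in the spleen. The medians of the 10 were -0.10 in the LN and -0.07 in the spleen. Dusp5, a phosphatase of ERK that IL-2 also induces, was at 71.1 and 49.3 CPM in ICOS FC and ICOS WT LN (0.53) and at 41.5 and 31.4 CPM in ICOS FC and ICOS WT spleen (0.40). Cblb, a ubiquitin ligase that restrains T cell activation, had -0.36 in the LN. Socs3 was the only 1 of these 10 counted between tissues, where 4.1% of all genes were higher in the LN under both labels. It was at 160.4 and 174 CPM in ICOS FC and ICOS WT LN against 58.0 and 61.6 CPM in ICOS FC and ICOS WT spleen.

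Of 19 other genes that IL-2 and STAT5 induce in T cells, 17 reached 20 CPM in the LN. Of these, 1 was counted as higher and 1 as lower, beside 1.11% and 1.05% of all genes. Nfil3, a transcription factor, was at 24.9 and 14.2 CPM in ICOS FC and ICOS WT (0.82 [0.58, 1.06]). Gzmb, the cytotoxic protease granzyme B, was at 480 and 1362 CPM, the reverse direction (-1.51 [-1.54, -1.47]). The counted genes thus went in opposite directions. By the interval alone, 11 of the 17 lay above equality and 3 below, where 20.4% of all genes lay above and 27.7% below. The median of the 17 was 0.20, beside -0.03 for all genes. In the spleen 12 reached 20 CPM and 0 were counted, beside 0.588% of all genes higher and 0.255% lower. There 5 intervals lay above equality and 6 below, with a median of -0.04, where 15.3% and 23.1% of all genes did. Those farthest from equality were Ctla4 (139 and 103 CPM in ICOS FC and ICOS WT, 0.43) and Tnfrsf4 (0.31) above and Ccnd2 (-0.23) below. Between tissues 5 of 18 were at least 2-fold higher in the LN under both labels, beside 4.1% of all genes: Gzmb, Ctla4, Tnfrsf4, Prdm1 and Tnfrsf18.

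Of 4 genes that IL-2 and STAT5 repress, Tcf7, Il6ra and Il6st reached 20 CPM. In the LN all 3 intervals lay below equality, where 27.7% of all genes did. Tcf7 was at 100.4 and 148 CPM in ICOS FC and ICOS WT (-0.56 [-0.65, -0.47]). Il6ra was at 89.7 and 123 CPM (-0.45 [-0.55, -0.35]), and neither reached 1.5-fold. In the spleen all 3 spanned equality, between -0.01 and 0.02. Of 6 genes for Foxo1, Klf2 and the targets they share with Il7r, 5 reached 20 CPM and 0 were counted between the labels. In the LN Klf2 (0.26) was above and Foxo1 (-0.34) below, and in the spleen S1pr1 (-0.15) and Klf2 (-0.03) were slightly below and Foxo1 (-0.07) spanned equality.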

How the data were processed

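Live CD4+ TCRβ+ YFP+ cells were profiled as 10x 3' libraries, 1 per group. The tools named, per the submitters' processing notes, are Seurat 3.0, Cell Ranger 4.0.0 and R 3.6.1, with build GRCm38.p6. Neither their roles nor any doublet removal is stated, and no doublet caller was run. The authors deposited natural log values, ln(1 + x), where x is a gene's UMIs per 10000 in that cell. The deposited cell table adds each cell's UMI count, genes detected, percent of mitochondrial counts, and cluster; its Control and KO entries were taken as ICOS WT and ICOS FC from the words alone. Inverting the log gave whole UMIs (within 0.001) for 100% of values, and every cell matched its deposited total.

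UMIs were summed per library or cluster (at least 50 cells) to CPM. Log2 ratios carry exact conditional Poisson intervals and shares Clopper-Pearson intervals, at 95%, covering counting error only. No test between groups was run. Thinning left out 59 and 69 ICOS FC and ICOS WT LN cells and 155 and 89 ICOS FC and ICOS WT spleen cells under 2000 UMIs. Named list genes were those counted plus up to 3 whose interval lay farthest from equality, and the 3 most alike for Il2ra, Il7r and Cish. Values of some list genes are not reported here. The members and lists were chosen with earlier results of these data known. Scaling alternatives used edgeR 4.0.16 (TMM) and DESeq2 1.42.0 size factors in R 4.3.3, and tables used Python 3.11.15, NumPy 2.4.6, pandas 2.3.3, SciPy 1.17.1 and Matplotlib 3.10.9. Gene positions are from GENCODE M21 (GRCm38).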

Additional observations from a re-analysis of the deposited data

Results flagged for a closer look

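Socs1 was the 1 gene of the 10 whose difference between labels ran in opposite directions in the LN and the spleen, with intervals clear of equality in both. It was at 386 CPM in ICOS FC LN and 338 CPM in ICOS WT LN, and at 122 CPM in ICOS FC spleen and 132 CPM in ICOS WT spleen. The LN log2 ratio exceeded the spleen one by 0.31. Each group was 1 library, so this difference was not tested.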

How the results depend on the processing

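The count of genes called higher or lower between the labels in the spleen was 1 (Pim1) and became 0 in 3 of the alternatives: cells under 5% mitochondrial counts, cells with a Foxp3 UMI, and cells outside spleen cluster 4. Pim1 then lay at 0.57 in each, just under 1.5-fold, and between 0.57 and 0.65 in all 11 ratio settings. Counting any fold with a clear interval gave 5 in the spleen, 9 in the LN and 8 between tissues. The count between tissues, 3, became 5 in thinned cells, where Il2rb and Cish joined, and 2 in cells with a Foxp3 UMI, where Il2ra was not counted, at 0.99 in ICOS WT. The LN count of 0 held under the other settings. No ratio of a called gene changed sign. In uncalled genes the sign changed for Il2ra, Il2rb, Stat5a, Cish and Il7r in the spleen, for Stat5a and Il7r in the LN, and for Stat5a and Stat5b between tissues, in 1 to 8 settings each. Removing cells with shared barcodes was chosen after seeing the data. The mean of cells' CPM and equal cluster weights were called by fold and level alone, and equal weights were not run between tissues, where cluster numbers differ. No paired analysis was possible because each group has 1 library, and no replicate could be left out.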
